A study of Mus musculus with 12 samples.

Results

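The genes described here encode the proteins of the mitochondrial ribosome, the machine that translates the mRNAs encoded by mitochondrial DNA. They were chosen by symbol alone: every gene whose symbol is Mrpl or Mrps followed by a number and at most 1 letter, pseudogenes excluded, was taken, which gave 78 of the 55414 gene records counted. Splenic CD4+ T cells were purified from WT male BALB/c mice aged 18 weeks, either controls (CTL) or mice with ligature-induced periodontitis (LIP), in which a ligature around a tooth provokes gum inflammation and which had carried it for 14 days. RNA was sequenced as 12 libraries, 3 in each of 4 groups. On day 0 the cells were left uncultured (CTL 88, 89 and 94, LIP 92, 93 and 94), and on day 2 they had been cultured with IL-2 at 10 ng/ml and with antibodies to TCRβ and CD28 at 1 µg/ml each (CTL 92, 93 and 97, LIP 90, 96 and 97). Doses follow the sample labels, and the study's methods give other ones for IL-2 and anti-TCRβ. In place of anti-CD28, the treatment entries give anti-CD29 for CTL 93 and LIP 96, whereas both libraries numbered 97 have anti-CD30 there. The labels do not say whether each library came from a separate mouse, so the p-values measure the spread between libraries.

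The mitochondrial ribosome has a large subunit, which joins amino acids, and a small subunit, which reads the mRNA. Its RNAs come from mitochondrial DNA, but all its proteins are encoded in the nucleus, made in the cytosol and imported. Its products are subunits of the respiratory chain and ATP synthase. Resting T cells are small and metabolically quiet, and antigen receptor stimulation is known to make them grow, divide and build mitochondria, so the comparison of day 2 with day 0 asks how far these genes took part, and the comparison of LIP with CTL asks whether periodontitis altered their level in spleen T cells before or after culture.

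The 78 genes lay on 17 chromosomes of GRCm39, with 11 of them on chromosome 11, and 51 were assigned to the large and 26 to the small subunit. Mrps18a and Mrps30 count among the 51, because their proteins sit in the large subunit despite their names. Mrps36, now known as a part of the α-ketoglutarate dehydrogenase complex, was assigned to neither. For 48 genes the protein has a counterpart in bacterial ribosomes, and the other 30, with Mrps36 among them, were listed without one.

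Promoters of these genes are shown because most of the family moved together in culture. RefSeq promoter sequences (GRCm38.p6) were matched for 69 of the 78 genes, and each window ran from 250 bases before to 50 bases after the start. Reading both strands, ACTTCCG, the core bound by ETS factors such as GABP, was found in 17 of the 69 (24.6%, against 9.39% of protein-coding genes counted the same way and 6.42% of all promoters in the table). CGCATGCG, bound by NRF1, was found in 7 (10.1% against 2.77% and 1.87%), and AAGATGGCG, bound by YY1, in 8 (11.6% against 2.14% and 1.40%). CACGTG, the E-box that MYC and other factors bind, was found in 5 (7.25% against 8.91% and 7.15%). At least 1 of the 4 was present in 31 (44.9% against 20.5% and 15.2%). A match is a run of letters and not a site shown to be bound. The 180 bases before the start are given below for 8 genes, counted from the RefSeq start in the promoter table, in lower case with these motifs in capitals, 5′ to 3′ on the strand of the gene. Mrps6, Mrpl45 and Mrpl20 had the highest rises in CTL cells, Mrpl23 and Mrps25 fell, Mrps18c and Mrpl32 had the highest LIP over CTL differences on day 2, and Mrpl10 holds 2 kinds of motif and was chosen for that.
Mrps6: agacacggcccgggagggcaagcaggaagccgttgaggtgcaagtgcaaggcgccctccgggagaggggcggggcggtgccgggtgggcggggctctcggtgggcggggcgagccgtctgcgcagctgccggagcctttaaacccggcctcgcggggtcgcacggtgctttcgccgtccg
Mrpl45: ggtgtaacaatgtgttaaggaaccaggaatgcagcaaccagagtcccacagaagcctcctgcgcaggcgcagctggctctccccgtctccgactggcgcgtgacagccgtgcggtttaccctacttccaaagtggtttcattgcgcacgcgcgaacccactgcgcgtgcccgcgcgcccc
Mrpl20: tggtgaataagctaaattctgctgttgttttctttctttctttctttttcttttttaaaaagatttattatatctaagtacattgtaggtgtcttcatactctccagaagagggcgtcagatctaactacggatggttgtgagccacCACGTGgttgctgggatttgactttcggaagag
Mrpl23: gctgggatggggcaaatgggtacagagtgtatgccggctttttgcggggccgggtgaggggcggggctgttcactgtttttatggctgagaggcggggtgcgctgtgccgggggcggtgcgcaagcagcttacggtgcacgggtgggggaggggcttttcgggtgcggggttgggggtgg
Mrps25: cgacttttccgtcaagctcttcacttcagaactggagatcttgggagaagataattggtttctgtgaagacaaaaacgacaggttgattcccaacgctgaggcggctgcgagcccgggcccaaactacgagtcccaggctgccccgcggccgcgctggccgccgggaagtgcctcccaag
Mrps18c: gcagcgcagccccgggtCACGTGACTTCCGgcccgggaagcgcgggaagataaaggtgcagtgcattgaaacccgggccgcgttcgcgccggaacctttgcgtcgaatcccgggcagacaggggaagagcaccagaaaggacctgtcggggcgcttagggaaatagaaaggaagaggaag
Mrpl32: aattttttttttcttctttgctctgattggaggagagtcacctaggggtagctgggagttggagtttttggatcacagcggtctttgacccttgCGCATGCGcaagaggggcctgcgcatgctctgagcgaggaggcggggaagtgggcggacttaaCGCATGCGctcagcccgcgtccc
Mrpl10: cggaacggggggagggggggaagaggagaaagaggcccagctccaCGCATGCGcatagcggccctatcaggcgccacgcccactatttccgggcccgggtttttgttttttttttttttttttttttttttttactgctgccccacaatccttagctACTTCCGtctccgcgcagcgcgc

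In the build of the counts (GRCm39), these stretches are chr16:91855044-91855223 (+ strand), chr11:97206362-97206541 (+ strand), chr4:155887155-155887334 (+ strand), chr7:142086589-142086768 (+ strand), chr6:92161005-92161184 (- strand), chr5:100946445-100946624 (+ strand), chr13:14787623-14787802 (- strand) and chr11:96932228-96932407 (+ strand). The RefSeq start is not always the start of the GENCODE gene used for positions elsewhere. The stretches of Mrps6 and Mrpl23 lie wholly inside the GENCODE gene, those of Mrps25, Mrps18c, Mrpl32 and Mrpl10 partly, and those of Mrpl45 and Mrpl20 end just before it. Mrps6, Mrpl45, Mrpl23 and Mrps25 show none of the 4 motifs in these 180 bases. Mrpl20 has an E-box that begins 33 bases before the start. In Mrps18c an E-box and an ETS core follow each other without overlap at 163 and 157 bases. Mrpl32 has the NRF1 motif 2 times, at 86 and 23 bases, and Mrpl10 has an NRF1 motif at 135 and an ETS core at 23 bases. The genes with an E-box had a median log2 fold change in CTL culture of 1.24 (n = 5), and the other 64 had 0.95. For the ETS core the medians were 0.98 with (n = 17) and 1.05 without (n = 52), for NRF1 0.98 (n = 7) and 1.02 (n = 62), and for YY1 1.16 (n = 8) and 0.98 (n = 61). These differences, and any part of the motifs in the change in culture, were not tested.

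All values rest on deposited expected counts per gene, which sum to 6249018 to 7845676 per library on day 0 and to 8691699 to 12866718 on day 2. The 78 genes held 8807 to 10779 counts per library on day 0 and 19401 to 32452 on day 2, and no single gene fell below 16 counts in any library. Levels are given as CPM, counts scaled to a common library total with TMM normalization. T cell markers summed to 2299.2 to 3190.7 CPM, with Cd4 at 422 to 645 CPM, and of the CD8 markers Cd8a reached at most 2.25 CPM and Cd8b1 lay between 3.29 and 11.0 CPM. The 8 B cell markers summed to 1.43 to 5.79 CPM in 9 libraries and to more in 3 libraries of day 2, given with the results of that day. The 10 myeloid markers summed to 2.6 to 13.9 CPM and the 8 NK cell markers to 67.2 to 82.8 CPM on day 0 and to 8.87 to 64.2 CPM on day 2. The 7 erythroid markers measured summed to 0.74 to 4.21 CPM and the 14 pancreatic acinar markers to 0.84 to 30.5 CPM, the highest in LIP 93 of day 0. The counts below are also given without CTL 94 of day 0 or without LIP 90 of day 2. Leaving out either raised the share of all genes that differed between LIP and CTL on its day at the threshold used below. In bulk RNA, a change in the RNA of each cell and a change in the kinds of cells present cannot be told apart.

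The genes were expressed at modest levels. The median over genes of the group mean was 14.4 CPM in CTL and 14.6 CPM in LIP cells on day 0, and 28.9 CPM in CTL and 34.3 CPM in LIP cells on day 2. Per length of the Ensembl canonical transcript, in CPM per kilobase (RPKM), the median gene stood at a level of 11.1 over all 12 libraries. Mrpl33 was the most abundant at a mean of 96.4 RPKM, followed by Mrps21 at 53.5 and Mrpl20 at 35.1, all genes of short transcripts of 732, 555 and 764 bases. At the other end stood Mrpl55 at 1.76 RPKM, Mrps28 at 2.27 and Mrpl54 at 4.23. Mrpl33, a large subunit protein with a bacterial counterpart, was counted at 44.9 ± 0.815 CPM in CTL and 53.0 ± 3.46 CPM in LIP cells on day 0 (mean ± SD, n = 3) and at 80.7 ± 8.17 and 104 ± 9.21 CPM on day 2. Mrps21 of the small subunit was at 16.6 ± 0.819 and 17.7 ± 3.28 CPM on day 0 and at 45.2 ± 6.33 and 39.3 ± 8.02 CPM on day 2. Mrpl55 was at 4.90 ± 1.25 CPM in CTL and 3.80 ± 0.0585 CPM in LIP cells, on day 0 and at 8.18 ± 1.10 and 10.1 ± 1.47 CPM on day 2.

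Culture raised most of the family in CTL cells. With edgeR's quasi-likelihood test and Benjamini-Hochberg adjustment over all genes tested, 65 of the 78 genes were higher on day 2 than on day 0 at an adjusted p under 0.05, and 2 were lower. Of the 14621 genes tested, 36.2% were called higher and 34.7% lower. The median log2 fold change of the 78 was 0.95 (quartiles 0.59 and 1.27), a median fold of 1.93, whereas that of all genes tested was -0.01. Summed over the 78 genes, the level was 1327.0, 1297.6 and 1407.6 CPM in the 3 CTL libraries of day 0 and 2230.6, 2317.0 and 2565.1 CPM in those of day 2. Without CTL 94, 63 were higher (34.8% of all genes tested) and 0 lower (32.0%), with a median of 1.01. In that fit the 2 genes that had been called lower kept a negative value, and their adjusted p was 0.112 for Mrpl23 and 0.0517 for Mrps25, while 1 of the 78 was lower at an unadjusted p under 0.05 (33.6% of all genes). DESeq2 on all libraries called 1 of the 78 lower (31.6% of all genes).

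Both subunits took part. In CTL cells, 44 of the 51 large subunit genes rose, by 0.35 (Mrpl15) to 2.25 on the log2 scale, and 1 fell. Of the 26 small subunit genes 20 rose, by 0.74 (Mrps31) to 2.40, and 1 fell. The median log2 fold change was 0.98 over the large and 0.91 over the small subunit, and it was 0.98 for genes with a bacterial counterpart and 0.90 for those without one. The difference between these groups of genes was not tested.

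Mrps6, a small subunit protein of bacterial descent, had the highest rise in CTL cells. It was counted at 13.3, 9.03 and 9.21 CPM on day 0 and at 58.7, 49.2 and 59.6 CPM on day 2. The lowest library of day 2 thus lay well above the highest of day 0. Its log2 fold change was 2.40 (SE 0.16, adjusted p = 2.48e-07 by edgeR). Mrps6 (chr16:91854965-91909592) shares 404 exonic bases with Slc5a3 on the same strand, a gene of 195 CPM on average that rose by 1.81 in CTL cells, and how far its counts depend on that neighbour was not tested.

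Mrpl45, which lies at the exit of the protein tunnel and anchors the ribosome to the inner membrane, stood at 10.2, 9.87 and 11.7 CPM on day 0 and at 50.0, 54.6 and 49.1 CPM on day 2 in CTL cells. That was a log2 fold change of 2.25 (SE 0.13, adjusted p = 6.92e-08), with no overlap between the days. Mrpl20, a large subunit protein that binds ribosomal RNA in bacteria, went from 9.49, 9.51 and 13.9 CPM to 42.2, 43.4 and 44.5 CPM, a log2 fold change of 1.96 (SE 0.16, adjusted p = 1.06e-06). Mrpl18, whose bacterial relative binds the smallest ribosomal RNA, rose by 1.79 (SE 0.17, adjusted p = 3.16e-06), and Mrpl34 by 1.69, Mrpl27 by 1.66 and Mrpl54 by 1.63. Mrpl34 is among the least counted of the family, with means of 3.33 ± 0.900 CPM on day 0 and 11.0 ± 2.13 CPM on day 2. Mrpl54 shares 4250 exonic bases with Matk on the opposite strand, which changed by -1.99 on the log2 scale in CTL cells. Mrpl18 shares 442 with Tcp1 on the opposite strand, a gene of 334 CPM on average that changed by 1.68 in CTL cells. Mrpl27 shares 177 with Eme1, also on the opposite strand, which changed by 3.46. How far the counts of these genes depend on their neighbours was not tested.

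Genes picked for what their proteins do gave a similar picture in CTL cells. Mrpl12, the stalk protein that calls in the translation factors, rose from 14.3 ± 1.51 to 40.1 ± 8.25 CPM, a log2 fold change of 1.46 (SE 0.17, adjusted p = 1.41e-05). Mrps12, part of the decoding centre where streptomycin binds in bacteria, rose by 0.82 (SE 0.24, adjusted p = 0.0102). Mrps30 of the large subunit rose by 0.50 (adjusted p = 0.00396), and Mrps36 by 1.33 (adjusted p = 4.87e-04). Mrpl58, a peptidyl-tRNA hydrolase that became a part of the large subunit and frees stalled ribosomes, showed 28.6, 25.8 and 24.5 CPM on day 0 and 26.1, 27.9 and 27.4 CPM on day 2, a difference of 0.03 (SE 0.12, adjusted p = 0.841). Its days overlapped.

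The 3 relatives of the bacterial protein S18 differed in size of change. Mrps18b rose by 1.70 (SE 0.16), from 9.27 ± 1.35 to 30.5 ± 3.14 CPM in CTL cells. Mrps18c rose by 1.11 (SE 0.16), from 12.5 ± 0.324 to 27.2 ± 4.73 CPM. Mrps18a, the one that sits in the large subunit, rose by 0.66 (SE 0.14), from 16.6 ± 1.44 to 26.8 ± 3.23 CPM. All 3 had an adjusted p of 0.00135 or less by edgeR.

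The 2 genes that fell were Mrpl23 and Mrps25. Mrpl23, a protein at the tunnel exit, went from 6.33, 5.78 and 7.63 CPM to 3.38, 4.42 and 4.77 CPM, with every library of day 2 below every library of day 0. The log2 fold change was -0.67 (SE 0.25, adjusted p = 0.0299). A pseudogene, Mrpl23-ps1, held up to 249 counts in a library, more than the 32 to 72 of Mrpl23 itself, so its reads may be shared between the 2 copies. Mrps25, the most abundant of the 78 genes by CPM on day 0, was at 71.7, 58.0 and 61.6 CPM and then at 44.5, 58.5 and 48.7 CPM, a log2 fold change of -0.35 (SE 0.13, adjusted p = 0.0296) with 1 library of day 2 inside the range of day 0. Its annotated exons share 6493 bases with Nr2c2 on the opposite strand, a gene of 194 CPM that changed by -0.51. The library kit marks strand, but whether the counting used it is not stated in the sources used here. Both calls were lost when any of 4 of the 6 CTL libraries was left out, with a highest adjusted p of 0.112 for Mrpl23 and 0.135 for Mrps25.

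For 11 genes in CTL cells no call was made. Mrps35 was nearest, at -0.38 (SE 0.16, adjusted p = 0.0512), and Mrpl48 at -0.15 and Mrpl24 at -0.13 were the other negative values. The remaining 8 lay between 0.03 and 0.24 and were Mrpl19, Mrpl32, Mrpl57, Mrpl58, Mrps5, Mrps9, Mrps17 and Mrps26.

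**Figure D1:**
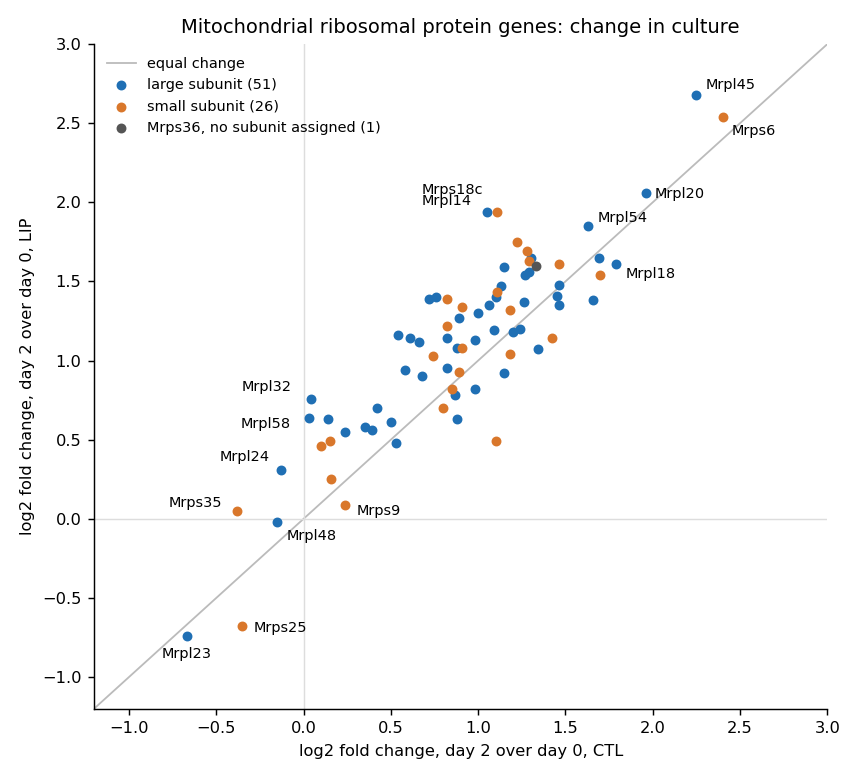
Log2 fold change of day 2 over day 0 in CTL (horizontal) and in LIP (vertical), 1 point per gene, large subunit blue, small subunit orange, Mrps36 grey, with the grey line marking equal change. Most points lie in the upper right, with Mrpl45 and Mrps6 at the top, Mrpl23 and Mrps25 at the lower left, and 56 of the 78 genes with the higher value in LIP.

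In LIP cells the rise was seen again in other libraries. Here 70 of the 78 genes were called higher (36.1% of the 14310 genes tested) and 2 lower (35.4%), with a median log2 fold change of 1.15 (quartiles 0.72 and 1.46) and a median fold of 2.22, against a median of 0.01 over all genes. The summed level was 1379.4, 1334.8 and 1386.2 CPM on day 0 and 2906.5, 2623.9 and 2568.8 CPM on day 2. Without LIP 90, 72 were called higher (38.0% of all genes tested) and 2 lower (37.0%), with a median of 1.13. The large subunit gave 48 of 51 genes higher, the small subunit 21 of 26, and 1 gene of each fell.

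Mrpl45 led in LIP cells, at 8.96, 7.88 and 10.2 CPM on day 0 and 60.5, 56.4 and 57.8 CPM on day 2. This was a log2 fold change of 2.68 (SE 0.13, adjusted p = 1.13e-06 by edgeR), and the days lay far apart. Mrps6 followed at 2.54 (SE 0.15), going from 8.13, 9.43 and 7.08 CPM to 54.9, 44.0 and 46.3 CPM. Mrpl20 rose by 2.06, Mrpl54 by 1.85, Mrps11 by 1.69 and Mrps27, a small subunit protein with repeats that bind RNA, by 1.75. Mrpl14, a large subunit protein at the face between the subunits, rose by 1.94 (SE 0.20), from 4.27, 3.80 and 5.34 CPM to 15.3, 16.5 and 20.6 CPM. It shares 1103 exonic bases with Tmem63b on the opposite strand, whose own change was -0.03. Mrps18c also rose by 1.94 (SE 0.15), from 13.1, 9.99 and 12.3 CPM to 42.4, 51.8 and 42.8 CPM.

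Mrps25 and Mrpl23 were again the 2 that fell. Mrps25 went from 76.7, 68.7 and 70.4 CPM to 47.3, 47.0 and 42.0 CPM, a log2 fold change of -0.68 (SE 0.10, adjusted p = 4.40e-04), with no overlap. Mrpl23 went from 6.89, 8.58 and 9.62 CPM to 4.48, 5.24 and 5.44 CPM, a log2 fold change of -0.74 (SE 0.20, adjusted p = 0.00949), also with no overlap. In LIP cells both kept their call whichever single library was left out. Mrpl24, Mrpl48, Mrps9, Mrps17, Mrps24 and Mrps35 were not called, with values from -0.02 (Mrpl48) to 0.49 (Mrps24, adjusted p = 0.0533).

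Of the genes picked by role, Mrpl12 rose by 1.48, Mrps12 by 1.39, Mrps18a by 1.12, Mrps18b by 1.54, Mrps30 by 0.61 and Mrps36 by 1.60 in LIP cells. Mrpl58 stood at 23.7, 21.4 and 28.2 CPM on day 0 and at 33.9, 39.9 and 42.1 CPM on day 2, a log2 fold change of 0.64 (SE 0.14, adjusted p = 0.00362). Its LIP libraries of day 2 all lay above those of day 0.

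By call, 64 genes were higher in culture in both groups and 2 were lower in both. Mrps24 was called in CTL cells alone, and Mrpl19, Mrpl32, Mrpl57, Mrpl58, Mrps5 and Mrps26 in LIP cells alone. A call in 1 group and not in the other is not a difference between the groups, which is tested further on. Over the 78 genes, the CTL and LIP log2 fold changes, which share no library, had a Pearson r of 0.88 and a Spearman rho of 0.82. Genes are not independent replicates, and the points share transcript length, base composition and the neighbours that overlap them. In CTL cells the change had an r of -0.57 with the level on day 0, of -0.41 with log2 transcript length and of 0.31 with GC content over the same 78 genes. The same day 0 libraries enter both the change and the level, so noise in them by itself lowers the first r. When the fit was corrected for transcript length, the median log2 fold change was 0.90 in CTL and 1.06 in LIP cells.

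**Figure D2:**
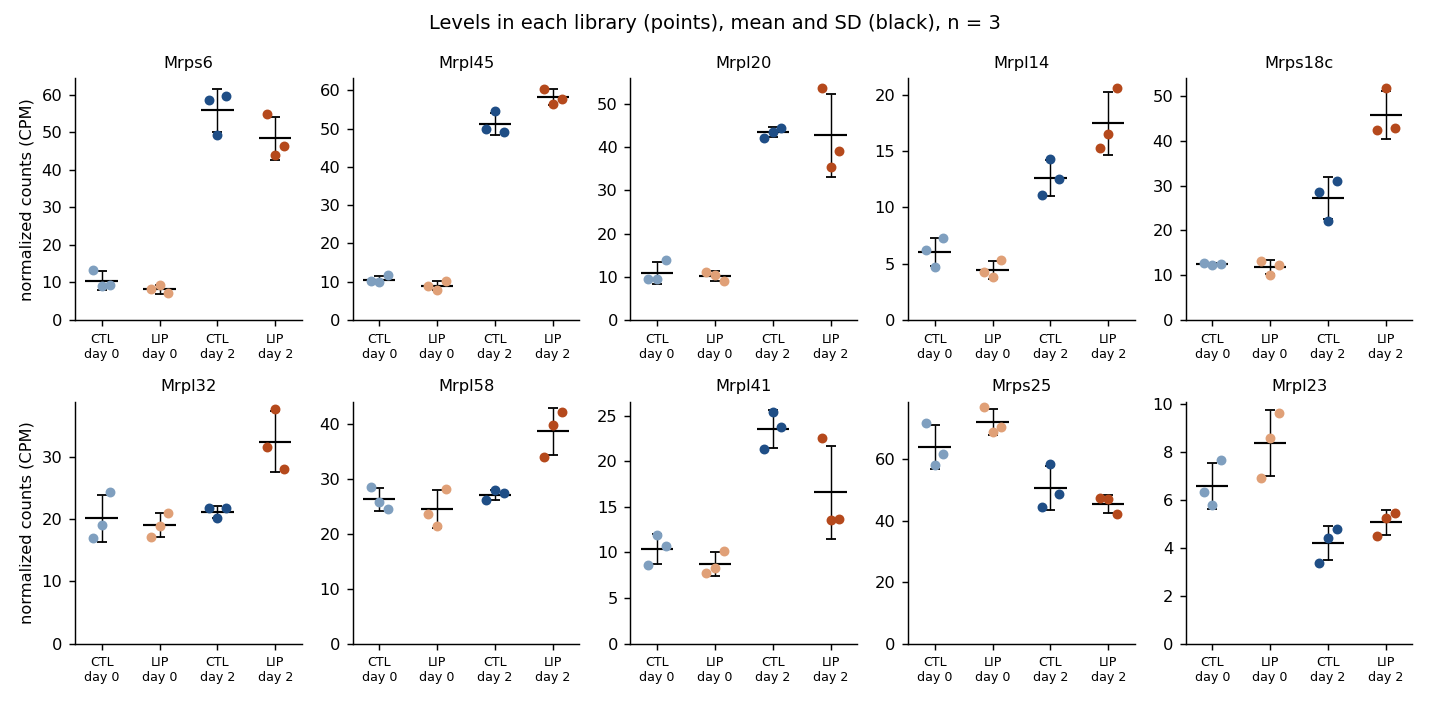
Normalized counts (CPM) of 10 genes in each library, with points for the 3 libraries of each group, a line for the mean and bars for the SD, and every axis starting at 0. Mrps6, Mrpl45 and Mrpl20 rise from about the same low level in both groups, Mrps25 and Mrpl23 fall, and Mrps18c, Mrpl32 and Mrpl58 have all 3 LIP libraries of day 2 above the CTL ones.

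On day 0 no difference between LIP and CTL cells passed the test. None of the 78 genes was called at an adjusted p under 0.05 (60 of the 14064 genes tested were, 0.427%), and DESeq2 called 0 of the 23 members for which it gave an adjusted p (2.90% of all genes with one). At an unadjusted p under 0.05, 5 were higher in LIP (6.67% of all genes tested) and 0 lower (7.20%). The log2 fold change of LIP over CTL was positive for 37 genes and negative for 41, with a median of -0.00 and quartiles of -0.10 and 0.10. All 3 LIP libraries lay above all 3 CTL libraries for 6 genes (9.26% of all genes) and below them for 4 (9.85%). Without CTL 94 the count of calls was 0 again (1.79% of all genes were higher and 2.80% lower), at an unadjusted p under 0.05 there were 6 higher (10.2%) and 2 lower (11.0%), and the median was 0.05.

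The outermost values on day 0 were modest. Mrpl2, which lies next to the site where peptide bonds form, was at 7.23, 6.14 and 7.63 CPM in CTL and 8.68, 10.7 and 8.95 CPM in LIP cells. The LIP libraries were all higher, and the log2 fold change was 0.44 (SE 0.18, 95% interval 0.04 to 0.84), with an adjusted p of 0.315 by edgeR. Mrps24 gave 0.37 (SE 0.15, adjusted p = 0.306) and Mrpl23 0.35 (SE 0.20, adjusted p = 0.468). At the low end, Mrps12 was at 4.52, 4.09 and 4.60 CPM in CTL and 3.03, 2.39 and 3.87 CPM in LIP cells, a log2 fold change of -0.49 (SE 0.26, 95% interval -1.07 to 0.08, adjusted p = 0.429), on counts as low as 17. Mrpl14 gave -0.42 (adjusted p = 0.475) and Mrpl55 -0.36 (adjusted p = 0.562). With 1 library left out these ranged from -0.58 to -0.26 and from -0.55 to -0.18.

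On day 2 the values leaned towards LIP, and no gene passed the adjusted threshold. The log2 fold change was positive for 62 of the 78 genes and negative for 16, with a median log2 fold change of 0.17 (quartiles 0.05 and 0.30) against -0.01 over all genes. The summed level was 2230.6 to 2565.1 CPM in CTL and 2568.8 to 2906.5 CPM in LIP libraries, which left a gap of only a few CPM between the groups. At an adjusted p under 0.05 edgeR called 0 of the 78 and 0 of the 14041 genes tested (0%), and DESeq2 called 2 of the 78 higher, Mrpl32 and Mrps18c (2.08% of all genes). Without a filter on low counts edgeR called 3 higher (1.59%), and with all 12 libraries in one fit 5 (2.88%). At an unadjusted p under 0.05, 17 were higher in LIP (8.33% of all genes) and 1 lower (8.20%). All LIP libraries lay above all CTL libraries for 25 genes (10.9%) and below them for 0 (10.5%). Of the 25, 18 were among the 51 large subunit genes and 7 among the 26 small subunit genes.

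The result depended on LIP 90. Without it, edgeR called 8 of the 78 higher in LIP (7.74% of all genes) and 1 lower (6.19%), with a median of 0.12, so the share of the family called higher was near that of all genes. The B cell markers were at 1.43 CPM in LIP 90 and at 37.0 and 34.6 CPM in the other LIP libraries of day 2, and at 4.02, 4.78 and 23.1 CPM in CTL 92, 93 and 97. Cd8b1 was at 4.75 CPM in LIP 90, 11.0 CPM in LIP 96 and 8.81 CPM in LIP 97, and at 5.18, 6.09 and 3.29 CPM in the CTL libraries. The part of these markers in the result was not tested.

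Mrps18c had the highest LIP over CTL value on day 2. It was counted at 28.6, 22.0 and 31.1 CPM in CTL and at 42.4, 51.8 and 42.8 CPM in LIP cells. The lowest LIP value exceeded the highest CTL value, and the log2 fold change was 0.73 (SE 0.16, 95% interval 0.37 to 1.10, adjusted p = 0.126 by edgeR). It was 0.81 without LIP 90 (adjusted p = 0.0114). Mrps18c shares 3197 exonic bases with Abraxas1 on the opposite strand, which gave -0.03 in the same comparison, and 250 with Gm43511 on the same strand, a gene of 6.98 CPM that gave 0.36.

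Mrpl32, which a protease of the inner membrane must trim before it can join the large subunit, was at 21.7, 20.1 and 21.7 CPM in CTL and 31.5, 37.7 and 28.1 CPM in LIP cells. The groups did not overlap, with a log2 fold change of 0.61 (SE 0.14, adjusted p = 0.135). Without LIP 90 it was 0.66 (adjusted p = 0.0198). Mrpl9 was at 41.9, 38.9 and 55.5 CPM in CTL and 58.2, 77.9 and 70.9 CPM in LIP cells, a log2 fold change of 0.59 (SE 0.17, adjusted p = 0.174), and of 0.73 without LIP 90 (adjusted p = 0.0155). The others called higher without that library were Mrpl24 (0.68), Mrpl58 (0.61), Mrps18a (0.54), Mrpl39 (0.44) and Mrpl33 (0.43), a list set by their values.

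The lowest values on day 2 were those of Mrpl41, Mrps24 and Mrps6. Mrpl41 of the large subunit was at 21.3, 25.4 and 23.8 CPM in CTL and 22.5, 13.6 and 13.7 CPM in LIP cells. LIP 90 lay within the CTL range and the other LIP libraries below it, so the log2 fold change was -0.51 with all libraries (SE 0.21, adjusted p = 0.277) and -0.77 without LIP 90 (adjusted p = 0.0100). Mrps24 gave -0.27 (SE 0.25, adjusted p = 0.630) and Mrps6 -0.22 (SE 0.13, adjusted p = 0.448). With 1 library left out they ranged from -0.43 to -0.01 and from -0.30 to -0.14.

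**Figure D3:**
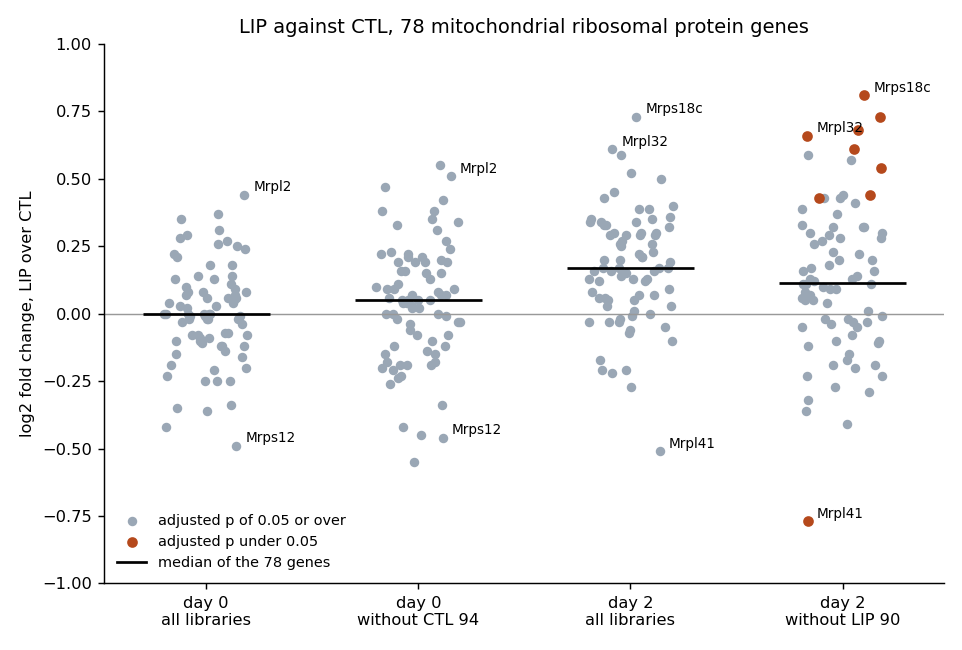
Log2 fold change of LIP over CTL for the 78 genes on day 0 and day 2, with all libraries and without CTL 94 or LIP 90, 1 point per gene (spread sideways at random), red where the adjusted p is under 0.05, and a black line at the median. The medians are -0.00 and 0.05 on day 0 and 0.17 and 0.12 on day 2, and red points appear only without LIP 90, with Mrps18c at the top and Mrpl41 at the bottom.

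The interaction of group and day, fitted on all 12 libraries, tests whether culture changed a gene more in LIP than in CTL cells. No gene of the 78 was called, and 8 of the 15475 tested were (0.0517%). At an unadjusted p under 0.05, 15 of the 78 were higher (8.65% of all genes) and 0 lower (7.28%), and DESeq2 called 2 higher, Mrps18c and Mrpl30 (2.90% of all genes). Without a filter on low counts edgeR called 1 higher, Mrps18c (1.82%). The interaction was positive for 56 genes and negative for 22, with a median of 0.21 against -0.00 over all genes. With a block on the library number, described further on, 38 were positive and 40 negative, in a fit with 1 residual degree of freedom. The smallest p belonged to Mrps18c, with an interaction of 0.82 (SE 0.22, adjusted p = 0.103 by edgeR). Mrpl30 gave 0.64 (SE 0.17, adjusted p = 0.104), Mrpl58 0.61 (SE 0.18, adjusted p = 0.129), Mrpl32 0.71 (SE 0.21, adjusted p = 0.132) and Mrpl14 0.89 (SE 0.29, adjusted p = 0.157). Mrpl30 went from 31.8, 25.8 and 32.4 CPM to 45.1, 51.5 and 57.3 CPM in CTL cells. In LIP cells it went from 23.7, 24.9 and 26.3 CPM to 66.9, 65.2 and 67.5 CPM. The means of its groups changed order between the days, but on day 0 the groups overlapped. Mrpl32 was at 20.2 ± 3.76 and 21.1 ± 0.932 CPM in CTL cells, and went from 19.0 ± 1.95 to 32.5 ± 4.87 CPM in LIP cells. Without LIP 90, 6 of the 78 were called higher (5.64% of all genes) and 0 lower (4.45%), with a median of 0.11. Without CTL 94 the median was 0.14, and 0 of the 78 were called higher (0.131% of all genes) or lower (0.0375%), with 11 higher at an unadjusted p under 0.05 (7.45% of all genes).

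Other components of the pathway were examined in the same comparison, in which 36.2% of all genes tested were called higher and 34.7% lower in CTL cells, and 36.1% and 35.4% in LIP cells. Of 5 ribosomal proteins of mitochondria that carry no Mrp symbol, 3 rose in CTL cells and 0 fell, with a median log2 fold change of 0.36, and 4 rose and 0 fell in LIP cells, with a median of 0.43. Chchd1 of the small subunit rose by 1.25 (SE 0.19) in CTL cells and Aurkaip1 by 0.81 (SE 0.14). Dap3, a GTP-binding protein of the small subunit, was at 0.14 there (SE 0.11, adjusted p = 0.263) and Gadd45gip1 at 0.35 (adjusted p = 0.0899). Both were called higher in LIP cells, Dap3 at 0.43 (adjusted p = 0.01265 by edgeR) and Gadd45gip1 at 0.36 (adjusted p = 0.03725). Among 16 translation factors, 5 rose and 3 fell in CTL cells, with a median of 0.24, and 8 rose and 2 fell in LIP cells, with a median of 0.33. The elongation factor pair Tufm and Tsfm changed in CTL cells by 1.32 (SE 0.13) and 1.55 (SE 0.20), and Slirp, which holds mitochondrial mRNAs with Lrpprc, by 1.33 (SE 0.17). Guf1, a relative of the bacterial back-translocation factor, was at -0.81 (SE 0.16) and the initiation factor Mtif3 at -0.72 (SE 0.13), both called lower in CTL cells. In LIP cells Guf1 at -0.47 (SE 0.10) was called lower, and Mtif3 at -0.28 (SE 0.14, adjusted p = 0.09757 by edgeR) was not.

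Of 28 assembly factors, 8 rose and 6 fell in CTL cells, with a median of 0.23, and 12 rose and 5 fell in LIP cells, with a median of 0.29. The RNA helicase Ddx28 rose by 1.55 (SE 0.18) in CTL cells and Rcc1l by 1.38 (SE 0.20), whereas the rRNA methyltransferase Mrm1 and Mettl17 each changed by -1.06 (SE 0.18 and 0.14) and were called lower. Of 20 genes for loading amino acids onto mitochondrial tRNAs, 5 rose and 4 fell in CTL cells, with a median of -0.05, and 4 rose and 5 fell in LIP cells, with a median of 0.07. Sars2 rose by 1.26 (SE 0.22) in CTL cells, and Ears2 at -1.98 (SE 0.15) and Nars2 at -1.12 (SE 0.13) fell. Of 7 genes of mitochondrial transcription, 2 rose in CTL cells, Tefm by 0.84 (SE 0.27) and Tfam by 0.37 (SE 0.15), and Polrmt, the RNA polymerase, fell by 0.42 (SE 0.15). In LIP cells 2 rose and 1 fell. Mterf2 was, in CTL cells, at -0.30 (SE 0.23, adjusted p = 0.257).

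Of the templates of the mitochondrial ribosome, 7 of 13 mitochondrially encoded mRNAs rose in CTL cells, with a median of 0.36, and 12 of the 12 tested in LIP cells, with a median of 0.83. The highest values in CTL cells were mt-Nd4l at 0.85 (SE 0.31) and, at 0.60 each, mt-Cytb (SE 0.10) and mt-Nd1 (SE 0.13). The lowest were mt-Co2 at -1.28 (SE 1.27, adjusted p = 0.3802), which was listed at 0 in all 3 LIP libraries of day 0 and not tested in LIP culture, and mt-Atp8 at 0.11 (SE 0.17, adjusted p = 0.580). On day 0 all 12 tested had a negative LIP over CTL value, 7 at an unadjusted p under 0.05 (7.20% of all genes), with a median of -0.27, and none passed the adjusted threshold. The 2 mitochondrial ribosomal RNAs, mt-Rnr1 at -0.34 (SE 0.26) and mt-Rnr2 at 0.52 (SE 0.23), were not called in CTL cells. In LIP cells mt-Rnr2 rose by 1.21 (SE 0.37, adjusted p = 0.0175) and mt-Rnr1 was at 0.37 (SE 0.39, adjusted p = 0.413). Since rRNA was depleted from the libraries their counts are no measure of ribosome number.

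Of 10 regulators of mitochondrial biogenesis tested, 3 rose and 4 fell in CTL cells, and 4 rose and 3 fell in LIP cells. Myc rose by 1.58 (SE 0.14) in CTL cells and Pprc1, a growth-induced coactivator, by 0.62 (SE 0.13), while Perm1 at -2.76 (SE 0.41) and Ppargc1b at -1.39 (SE 0.15) fell. Gabpb1, a subunit of the factor that binds the ETS core, rose there by 0.39 (SE 0.10). Gabpa at 0.09 (SE 0.10) and Nrf1 at 0.23 (SE 0.10, adjusted p = 0.0603) were not called in CTL cells. Yy1 fell there by 0.22 (SE 0.09, adjusted p = 0.04997). In LIP cells Gabpa rose by 0.47 (SE 0.10, adjusted p = 0.003046 by edgeR). Yy1 at -0.20 (adjusted p = 0.06345 by edgeR) and Pprc1 at 0.21 (adjusted p = 0.1756) were not called in LIP cells. The other regulators named here had the same call in both groups. No gene of these lists was called in LIP over CTL on either day.

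**Figure D4:**
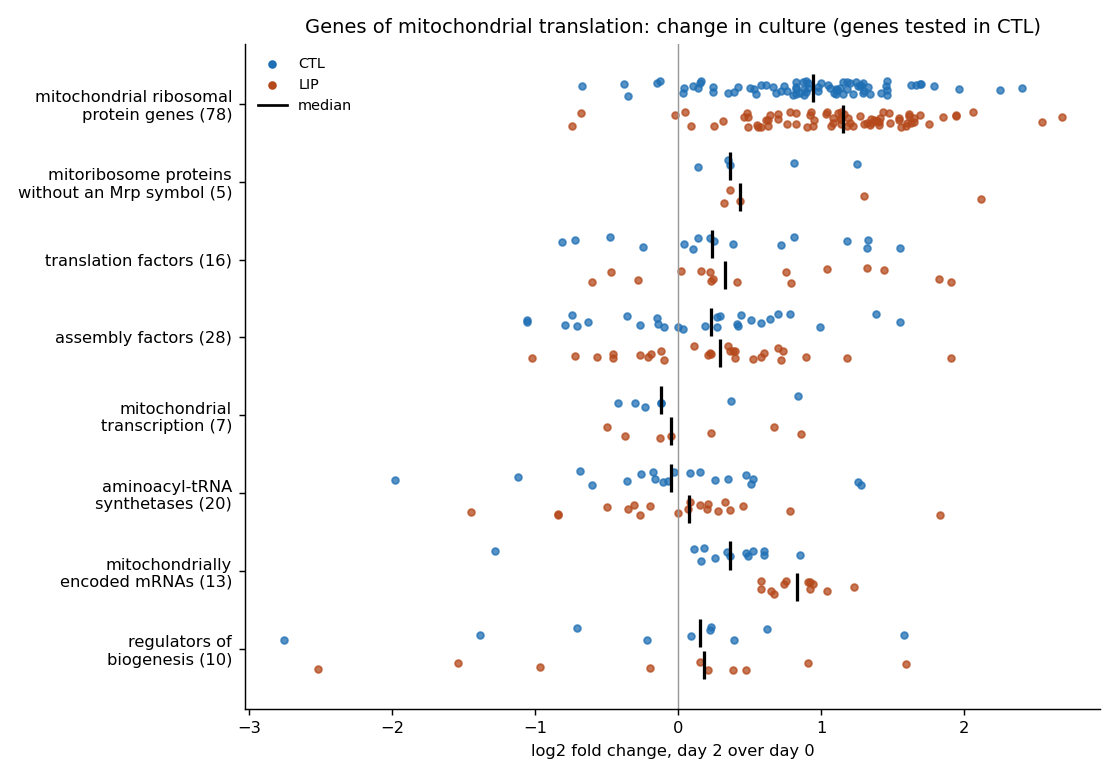
Log2 fold change of day 2 over day 0 for the 78 genes and for 7 lists of related genes, CTL in blue and LIP in red, 1 point per gene, a black line at the median, and the number tested in CTL in brackets (1 mRNA fewer in LIP). The medians in CTL are 0.95 for the 78 genes and between -0.12 and 0.36 for the other lists.

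The 78 genes were set beside 2 gene families of similar purpose. In CTL cells, the median log2 fold change in culture was 0.74 over 80 cytosolic ribosomal protein genes and 1.29 over 78 nuclear genes of the respiratory chain, against 0.95 here, and 67 and 74 of them rose. In LIP cells the medians were 1.29, 1.41 and 1.15 in the same order. On day 0 the median of LIP over CTL was -0.19 over the cytosolic ribosomal protein genes, with 30 of 80 lower at an unadjusted p under 0.05 (7.20% of all genes), and -0.00 over the respiratory chain genes. Without CTL 94 the first was -0.09, with 22 lower (11.0% of all genes) and 4 higher (10.2%). On day 2 it was 0.35 and 0.14, and for the interaction 0.54 and 0.16, against 0.17 and 0.21 for the 78 genes. Without LIP 90 the medians on day 2 were 0.47 and 0.09, and 0.12 for the 78. The interaction medians, in the same order, were 0.63, 0.09 and 0.11 without LIP 90 and 0.45, 0.09 and 0.14 without CTL 94. The differences between these families were not tested.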

How the data were processed

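Whole-transcriptome RNA sequencing of 12 libraries of splenic CD4+ T cells was used, with libraries assigned to CTL or LIP and to day 0 or day 2 by the sample titles. The authors checked 150-bp paired-end reads with FastQC 0.11.9, trimmed them with Trimmomatic, used GRCm39 as the genome, ran RSEM 1.3.0 with Bowtie2, and deposited its expected counts for each gene without normalization. The annotation release and the strand setting of RSEM are not given in the sources used here. The authors' tables for each day gave the gene symbols. Their fold changes, p-values and signals were not used, and 2 columns of the day 2 table belong to libraries not among the labelled samples.

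Counts were rounded (73267 values were not whole), filtered with filterByExpr, TMM-normalized and tested with the quasi-likelihood test of edgeR 4.0.16 in R 4.3.3, per comparison and, for the interaction, over 12 libraries. Benjamini-Hochberg adjustment covered all genes tested. DESeq2 1.42.0 was an alternative. With 3 against 3 libraries an exact permutation test cannot go below p = 0.1, so none was run on single values. GENCODE release M39 gave positions, lengths and overlaps. Corrections for GC content and transcript length used lowess (span 0.3). The scripts were tested on simulated data. Intervals of log2 fold changes cover 95% and use the t distribution with the degrees of freedom of the edgeR test. Python 3.11.15 drew the figures.

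Genes named are the calls and the 3 highest and lowest log2 fold changes of LIP over CTL per day, the 8 highest and 5 lowest changes in culture per group, the 5 smallest interaction p-values, the 3 highest and lowest levels per length, genes of 9 chosen roles, and the 2 highest and lowest of each related list. Some items that this rule names are not reported here. Any other gene was named after its values were seen. The members and lists were chosen with earlier results of these data known.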

Additional observations from a re-analysis of the deposited data

How the results depend on the processing

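No paired analysis was possible because LIP and CTL share only 1 library number on each day, 94 and 97, and the groups compared in culture share none. For the interaction, a replicate block on the number (4 numbers occur in more than 1 group) was added after seeing the data. It left 1 residual degree of freedom per gene, and nothing says that a number marks a shared animal. The median was -0.01, 38 values were positive and 40 negative, 0 genes were called higher (2.39% of all genes) and 1 lower (1.16%), Mrps24 (-1.42, SE 0.37, adjusted p = 0.0273 by edgeR). The median log2 fold change of the 78 genes in culture kept its sign under every alternative tried. With upper-quartile normalization it was 0.68 in CTL and 0.85 in LIP cells, and with no normalization beyond total counts 0.78 and 0.80, settings that moved the median of all genes by over 0.1. With upper-quartile normalization that median was -0.28 and -0.29 in CTL and LIP cells, and without normalization -0.18 and -0.34. Relative to it, the 78 genes had a median of 0.96 in CTL and 1.14 in LIP cells under both. With the length correction it was 1.06 in LIP cells, and the interaction median was 0.04 without normalization, 0.21 above that of all genes. The number of genes called lower in CTL culture was 5 with upper-quartile or no normalization (44.5% and 40.8% of all genes), 3 with GC correction, with at least 10 counts in every library or with all 12 libraries in one fit (34.0%, 35.6% and 33.7%), and 1 without a filter, with DESeq2 or with the length correction (21.2%, 31.6% and 34.4%). On day 2, 3 genes were called higher in LIP without a filter (Mrpl32, Mrps18c and Mrpl9), 2 with DESeq2 and 5 with all 12 libraries in one fit (1.59%, 2.08% and 2.88% of all genes). The interaction gave 1 without a filter and 2 with DESeq2 (1.82% and 2.90% of all genes). Leaving out 1 library at a time gave 62 to 64 genes higher and 0 to 2 lower in CTL culture (median 0.92 to 1.03), 68 to 72 higher and 2 lower in LIP culture (median 1.13 to 1.23), 0 called on day 0 (median -0.03 to 0.05), 0 to 8 higher and 0 to 1 lower on day 2 (median 0.11 to 0.25), and 0 to 6 higher for the interaction (median 0.11 to 0.26). Some uncalled values near 0 turned sign. Upper-quartile and no normalization lower all genes by the shifts above, which by itself turned Mrpl58 in CTL culture (-0.24 and -0.14) and, in LIP culture, Mrps35 (-0.25 and -0.29) and Mrps9 (-0.21 and -0.25). Mrpl58 in CTL culture was also -0.02 with GC correction and -0.00 to 0.09 with 1 library left out. In LIP culture, Mrpl48 was 0.05 without a filter, 0.04 with the length correction and -0.03 to 0.05 with 1 library left out, and Mrps35 -0.00 with at least 10 counts and -0.02 to 0.13 with 1 library left out. The cause of these was not tested.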

Other observations

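Many of the 78 genes sit back to back with another gene. With a start within 1000 bases of the start of a protein-coding neighbour on the other strand, 24 of the 78 genes (30.8%) had such a partner, against 1301 of the 11590 protein-coding genes tested (11.2%). In CTL cells 23 of the partners were tested in culture, of which 14 rose (36.2% of all genes tested did) and 4 fell (34.7%), with a median log2 fold change of 0.37. Mrps11 and Mrpl46, 30 bases apart, are partners of each other, so both are among the 14 although they belong to the 78. They rose by 1.28 and 1.13 on the log2 scale in CTL cells and by 1.69 and 1.47 in LIP cells. The partners named next are extremes, and others changed less than their member, such as Helq at 0.37 beside Mrps18c at 1.11. Ncapd2, a condensin subunit 44 bases from Mrpl51, rose by 3.78 in CTL cells where Mrpl51 rose by 1.45, and Ska3, a spindle protein 156 bases from Mrpl57, rose by 3.09 where Mrpl57 was at 0.14 (adjusted p = 0.499). Psma2, a proteasome subunit 54 bases from Mrpl32, rose by 1.57 in CTL cells, where Mrpl32 was at 0.04. Pnpla7, 101 bases from Mrpl41, was at -2.17 and Mitd1, 61 bases from Mrpl30, at -1.30 in CTL cells, both called lower, where Mrpl41 was at 1.15 and Mrpl30 at 0.76. These partners were named after their values were seen.

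In GENCODE release M39, 8 of the 78 genes share exonic bases with another gene on the same strand and 57 with one on the opposite strand. Of 6 pseudogenes named after members, Mrpl23-ps1 reached 249 counts in a library, Mrpl48-ps 38, and the other 4 at most 2.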
